A study of Caenorhabditis elegans with 4 samples.

Results

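Chromosome III of Caenorhabditis elegans embryos carried 318 regions with a PQN-85 ChIP-seq peak, out of 1976 such regions on the 6 nuclear chromosomes. A region was made by joining all deposited peaks on III that shared at least 1 bp, whichever of the 3 peak lists they came from. The lists belonged to ChIP replicate 1, to ChIP replicate 2 and to the series as a whole, and the third is called the series-level list here. Coordinates are on WormBase WS220. The 2 ChIP samples and the 2 input DNA samples were of wild-type N2 embryos of mixed stage, from a population of both males and hermaphrodites kept at 20 degrees Celsius. Embryos had been bleached out of gravid adults in liquid culture and fixed for 30 minutes in 2% formaldehyde, and PQN-85 was precipitated with an affinity-purified polyclonal antibody raised in rabbit. The inputs had no peak list among the data used here. Whole embryos were used, so the regions are a mixture over all embryonic cells, and no label says whether the replicates were separate cultures. Differences between the replicates may therefore be technical.

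PQN-85 is the Scc2 protein of the worm, known as NIPBL in mammals, and with its partner MAU-2 it puts the cohesin ring on DNA. Cohesin holds sister chromatids together until they separate, and it also folds chromosomes into loops. Worm autosomes such as III have a gene-dense centre with little meiotic recombination, flanked by arms that recombine more and hold more repeats. Their kinetochores assemble along the whole chromosome and not at a single centromere.

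Most PQN-85 peaks of III were short sites. Replicate 1 listed 279 peaks there, with a median width of 358 bp and an interquartile range of 218 to 566.5 bp. Replicate 2 listed 116, with a median of 427.5 bp (249.5 to 652 bp). The series-level list had 150, and their median was 235.5 bp (184 to 374.75 bp). All regions together covered 157.7 kb, or 1.14% of the chromosome. Every peak carries the score that the authors' caller gave it, and no source says which quantity it is. Scores of III peaks reached 3100 in replicate 1 (lowest 50.3), 2232.41 in replicate 2 (lowest 50.43) and 59.46 at series level (lowest 1.62), so they were ranked within a list only. Genes and sequence at the regions were not analysed here, and input signal was not compared.

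The lists as deposited, in which replicate 1 had 279 peaks on III and replicate 2 had 116, shared a minority of the III regions. Both replicates held a peak at 85 of the 318 regions (26.7%, exact 95% binomial interval 21.9 to 32.0), against 25.9% of the 1329 regions on II, IV, V and X. Replicate 1 without replicate 2 gave 188 regions on III (59.1%, 53.5 to 64.6), against 61.2% on the other 4 chromosomes. Replicate 2 without replicate 1 gave 15 (4.72%, 2.66 to 7.66), against 4.97%. The series-level list alone gave the remaining 30 (9.43%, 6.46 to 13.2), against 7.90%. These shares depend on the unequal lengths of the lists. With replicate 1 held to as many of its highest-scoring peaks as replicate 2 had, III held 179 regions. Of these, 35.8% were in both replicates (against 33.7% on II, IV, V and X) and 17.3% in replicate 1 without replicate 2 (against 24.0%). A further 20.1% were in replicate 2 without replicate 1 (against 19.4%) and 26.8% in the series-level list alone (against 22.9%). The difference of -6.65 percentage points for replicate 1 without replicate 2 did not pass its test (Fisher's exact adjusted p = 0.30).

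None of the 4 shares from the deposited lists passed a test of III against the other chromosomes. Fisher's exact test was two-sided and adjusted over 5 comparisons. The difference was 0.85 percentage points for both replicates, -2.13 for replicate 1 without replicate 2 and 1.53 for the series-level list alone (Fisher's exact adjusted p = 0.97 each). It was -0.25 points for replicate 2 without replicate 1 (Fisher's exact adjusted p = 1). The intervals treat regions as independent, which neighbouring regions are not, and they cover counting error over regions and not variation between cultures.

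The series-level list took up most of the sites seen in both replicates. It held 78 of these 85 regions on III (91.8%, against 91.3% of 344 on II, IV, V and X). It held 26 of the 188 regions of replicate 1 that replicate 2 lacked (13.8%, against 16.6% of 814). Of the 15 that replicate 2 had and replicate 1 lacked, it held 9 (60%, against 63.6% of 66). Unshared regions of replicate 2 were thus in the series-level list more often than unshared regions of replicate 1, a difference that was not tested.

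**Figure D1:**
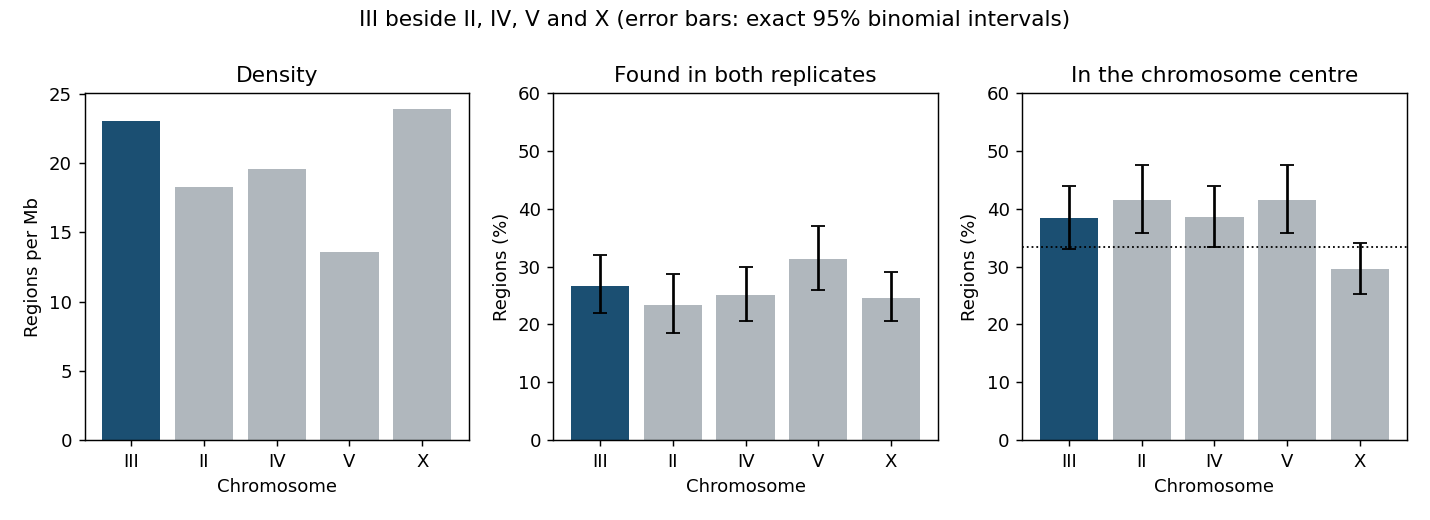
Density of regions per Mb (left), percentage of regions found in both replicates (middle) and percentage with the midpoint in the middle 33.3% of the chromosome (right) on III (blue) and on II, IV, V and X (grey), with exact 95% binomial intervals on the percentages and a dotted line at 33.3%. III held 23.1 regions per Mb, close to the 23.9 of X, while its percentages lay among those of the other chromosomes.

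PQN-85 regions were dense on III. It held 23.1 regions per Mb, against 18.3 on II, 19.6 on IV, 13.6 on V and 23.9 on X. That is 19.3% of the 1647 regions on these 5 chromosomes for 16.2% of their length, a ratio of 1.19 (1.08 to 1.32, exact binomial p = 0.000721). Set against each chromosome alone, a comparison added after the values were seen, III was denser than V (ratio 1.33, exact binomial adjusted p = 3.4e-10) and II (ratio 1.12, exact binomial adjusted p = 0.0093). The difference from IV missed the threshold (ratio 1.09, 1.00 to 1.18, exact binomial adjusted p = 0.0505), as did that from X (ratio 0.98, 0.90 to 1.06, exact binomial adjusted p = 0.66). The exact tests here and below treat regions as independent, which clustered regions are not. Their p-values and intervals cover counting error over regions and not variation between cultures.

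The excess did not hold under every choice of background and peaks. With V left out of the background the ratio was 1.09 (exact binomial p = 0.092), and in the higher-scoring 50% of each list it was 1.07 (exact binomial p = 0.42). Single lists, also added after the values were seen, gave 1.15 in replicate 1 (exact binomial p = 0.011), 1.26 in replicate 2 (exact binomial p = 0.0089) and 1.11 at series level (exact binomial p = 0.16). With regions at most 10 kb apart counted once, III held 203 of 1076 groups, a ratio of 1.17 (1.02 to 1.32, exact binomial p = 0.018).

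Peak scores on III had lower medians than elsewhere. The median score in replicate 1 was 102.4 on III, against 129.2 on II, IV, V and X. In replicate 2 it was 109.0, against 144.6, and at series level 6.77, against 7.14. The highest-scoring 20% of each list held 17.6% of the III peaks of replicate 1 (49 peaks, 13.3 to 22.5), against 21.0% of those on the other chromosomes. For replicate 2 the share was 18.1% (21 peaks, 11.6 to 26.3), against 22.2%, and for the series-level list 20% (30 peaks, 13.9 to 27.3), against 20.7%. The interval on III held the value of the other chromosomes in each list.

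The regions were spread along the whole of III. The middle 33.3% of its length, called the centre here, ran from 4594578 to 9189154 and held 122 of the 318 midpoints (38.4%, 33.0 to 44.0), against 36.9% on II, IV, V and X. The share on III missed the threshold against 33.3% (exact binomial p = 0.065), and the difference of 1.42 percentage points from the other chromosomes did not pass either (Fisher's exact adjusted p = 0.97). The left arm held 94 regions (29.6%, 24.6 to 34.9) and the right arm 102 (32.1%, 27.0 to 37.5). Without the replicate 1 list the centre held 32.7% of 162 regions (exact binomial p = 0.93), and without the series-level list 39.6% of 293 (exact binomial p = 0.026).

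**Figure D2:**
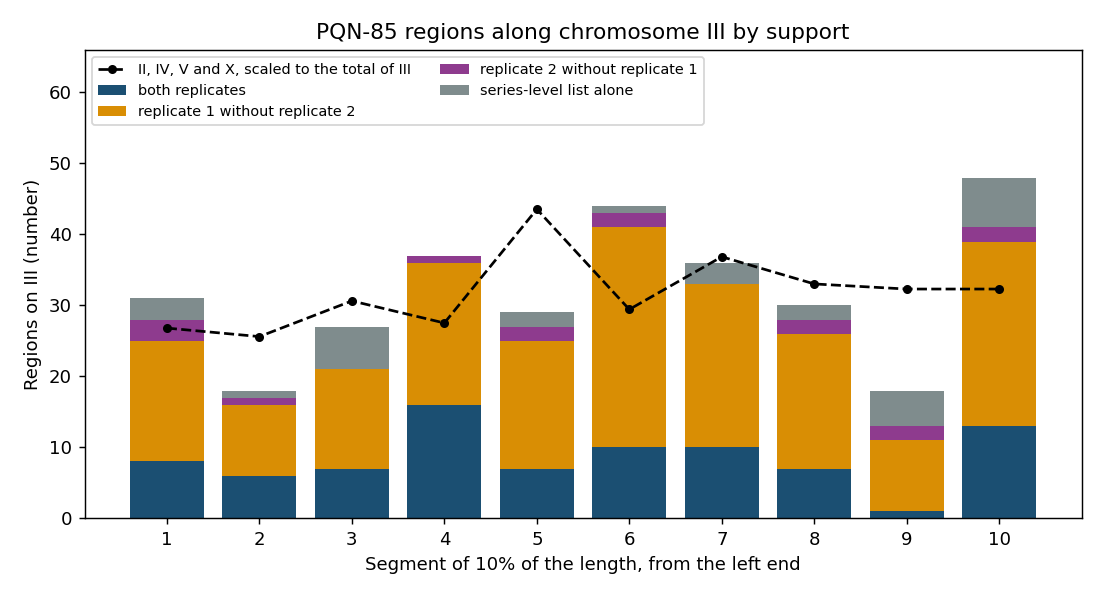
Number of III regions in each segment of 10% of the chromosome, from the left end to the right, stacked by support (both replicates, replicate 1 without replicate 2, replicate 2 without replicate 1, series-level list alone). The dashed line gives II, IV, V and X summed and scaled to the same total, and the last segment of III holds 48 regions, the most of the 10.

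Cut into 10 segments of equal length, III was fullest at its right end, and each arm had a sparse stretch. The last segment held 48 regions, of which 13 were in both replicates, and the 6th held 44, of which 10 were in both. The largest clusters, described below, lay in these segments, with 13 and 9 regions in the last and 12 in the 6th. The counts are thus not of independent sites. The 2nd and the 9th held 18 each. Scaled to the total of III, the regions of II, IV, V and X would give 32.3 in the last segment, 29.4 in the 6th, 25.6 in the 2nd and 32.3 in the 9th. A single region of the 9th segment was in both replicates, whereas 16 of the 37 in the 4th were. Of the full megabases, the one with fewest regions lay from 2 to 3 Mb and held 8. The one with most, from 7 to 8 Mb, held 37, of which 27 were in replicate 1 without replicate 2. The incomplete stretch from 13 Mb to the last coordinate held 32 in a shorter length.

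The longest stretch of III without any region spanned 388.5 kb of the right arm, from 11481512 to 11870025. The next spanned 324.4 kb of the left arm, from 2172417 to 2496820. The median distance between neighbouring regions was 20.7 kb (interquartile range 3.97 to 56.7), against 19.8 kb on II, 29.4 kb on IV, 38.2 kb on V and 26.2 kb on X. Of the 138 windows of 100 kb on III, 27 held no region (19.6%, against 27.5% on II, 20.6% on IV, 35.7% on V and 10.7% on X). The share of empty windows followed the density of regions, which was 2.30 per window on III, 1.82 on II, 1.96 on IV, 1.35 on V and 2.38 on X. The median distance did not follow it. It was shortest on II, at 19.8 kb, and 26.2 kb on X, the densest chromosome.

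Support by the replicates showed no detectable difference between centre and arms. In the centre 34 of 122 regions were in both replicates (27.9%, 20.1 to 36.7), and on the arms 51 of 196 (26.0%, 20.0 to 32.8, Fisher's exact p = 0.79). The left arm had 29 of 94 (30.9%, 21.7 to 41.2) and the right arm 22 of 102 (21.6%, 14.0 to 30.8), with intervals that overlap. The series-level list alone supplied 6 regions of the centre (4.92%), 10 of the left arm (10.6%) and 14 of the right arm (13.7%), and this difference was not tested.

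Regions seen in both replicates were the widest class on III. Their median width was 684 bp (interquartile range 535 to 890). Regions of replicate 1 without replicate 2 had a median of 286.5 bp (209 to 417), those of replicate 2 without replicate 1 263 bp (216.5 to 348.5), and those of the series-level list alone 179 bp (164.25 to 221.5). A joined region is at least as wide as each of its peaks, so the joining itself adds to this order. On II, IV, V and X the medians of the same classes were 695.5, 344, 294.5 and 182 bp. Shared regions made up 50.2% of the 157.7 kb covered on III.

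**Figure D3:**
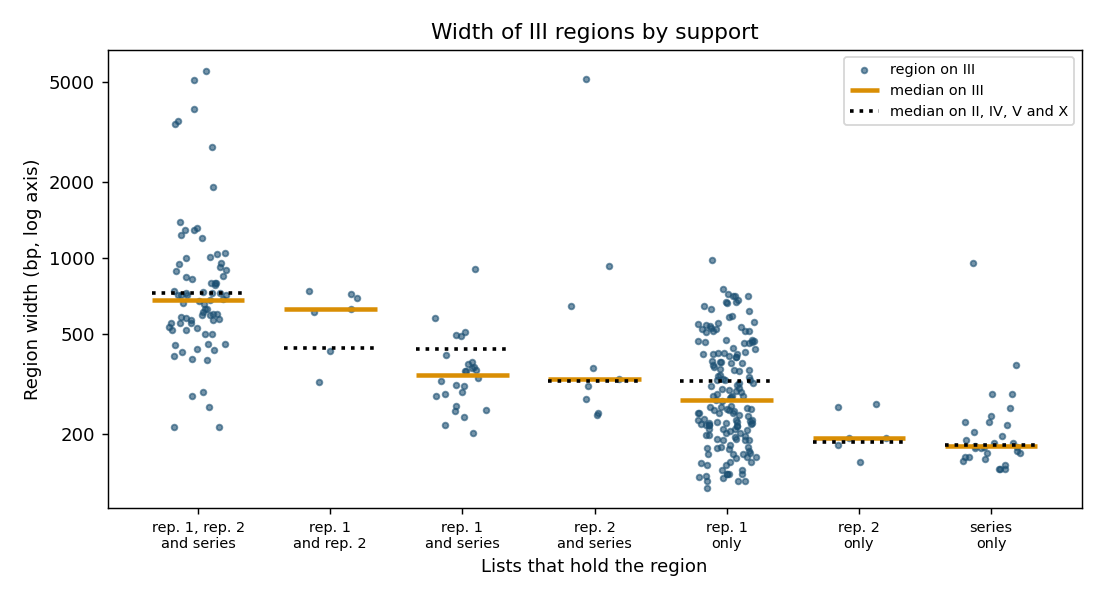
Width in bp (log axis) of each III region by the lists that hold it, with the median on III (orange bar) and the median on II, IV, V and X (dotted). Regions in all 3 lists have a median of 684.5 bp, those in replicate 1 only 272.5 bp, and a single region of 5120 bp stands apart among those of replicate 2 and the series-level list.

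The strongest III site by series-level score lay on the right arm from 10224496 to 10225882. It scored 1762.78 in replicate 1, 877.23 in replicate 2 and 59.46 at series level, which ranked it 45th, 38th and 5th of the nuclear peaks of those lists. It was 1387 bp wide and the first of 3 neighbouring regions within 2.83 kb. Next came a 627 bp region on the left arm from 3867251 to 3867877, with scores of 680.11 in replicate 1, 466 in replicate 2 and 57.71 at series level. A 1919 bp region in the centre, from 7594578 to 7596496, scored 1805.37, 645.11 and 51.72 in the same lists. These leading sites thus lay on both arms and in the centre.

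Of the following 7 sites by series-level score, 3 were wide. They ran from 1299636 to 1303140 (3505 bp, series-level score 46.78), from 5353038 to 5358563 (5526 bp, 46.74, the widest region of III) and from 7444277 to 7448171 (3895 bp, 39.12). Replicate 1 gave all 3 a score of 3100, a value it gave to 5 peaks on III and 10 on II, IV, V and X. Replicate 2 scored them 2002.87, 393.57 and 1079.99. The widest region, tied for the highest replicate 1 score on III, ranked 18th on III in replicate 2, which listed it as 2 peaks.

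The other 4 were narrow, between 572 and 734 bp. The region from 931047 to 931780 scored 880.7 in replicate 1, 283.78 in replicate 2 and 44.51 at series level. From 8043646 to 8044217 the scores were 586.57, 464.12 and 43.97 in the same lists, and from 10758870 to 10759461 they were 632.61, 451.98 and 36.71. The last, from 3897081 to 3897764, scored 252.72 in replicate 1, 1000.68 in replicate 2 and 35.78 at series level. Its rank on III was 69th in replicate 1 and 6th in replicate 2, the widest difference in rank among the 10. The 3 regions from 3867251, 8043646 and 10758870 also ranked higher on III in replicate 2 (15th, 16th and 17th) than in replicate 1 (23rd, 31st and 27th).

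Ranking by replicate score picked wider sites than ranking by series-level score. Among the 85 regions in both replicates, the 10 highest had a median width of 3078 bp by replicate 1 score, 2339.5 bp by replicate 2 score and 1060.5 bp by series-level score. The replicates shared 8 of their 10, and 4 were among the 10 of all lists. Score and width had a Spearman's rho of 0.83 over the III regions of replicate 1 (n = 273), 0.75 over those of replicate 2 (n = 100) and 0.67 over those of the series-level list (n = 143). Score and width come from the same peak call, so these are descriptions.

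III held 7 regions of 2 kb or wider, a class singled out after the values were seen. They were 2.20% of the III regions, against 3.23% on II, 3.21% on IV, 5.28% on V and 2.84% on X, which was not tested. They made up 18.6% of the base pairs covered on III, against 19.2% on II, 20.5% on IV, 33.7% on V and 19.1% on X. Of the 7, 5 lay on the left arm, 2 in the centre and 0 on the right arm. Besides the 3 given above, a 5082 bp region from 2496821 to 2501902 scored 3100 in replicate 1, 2232.41 in replicate 2 and 21.75 at series level. It held the highest replicate 2 score on III and ranked 7th in the whole of that list, but 130th in the series-level list.

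A further pair of wide regions scored high in both replicates. The region from 1017293 to 1020688 (3396 bp) scored 2580.42 in replicate 1, 1837.21 in replicate 2 and 26.54 at series level, and that from 3334287 to 3337046 (2760 bp) scored 3100, 1499.07 and 23.05. Both ranked among the 4 highest of III in replicate 2 and outside the 10 highest at series level. The remaining wide region was absent from replicate 1 and is described with the sites of replicate 2.

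**Figure D4:**
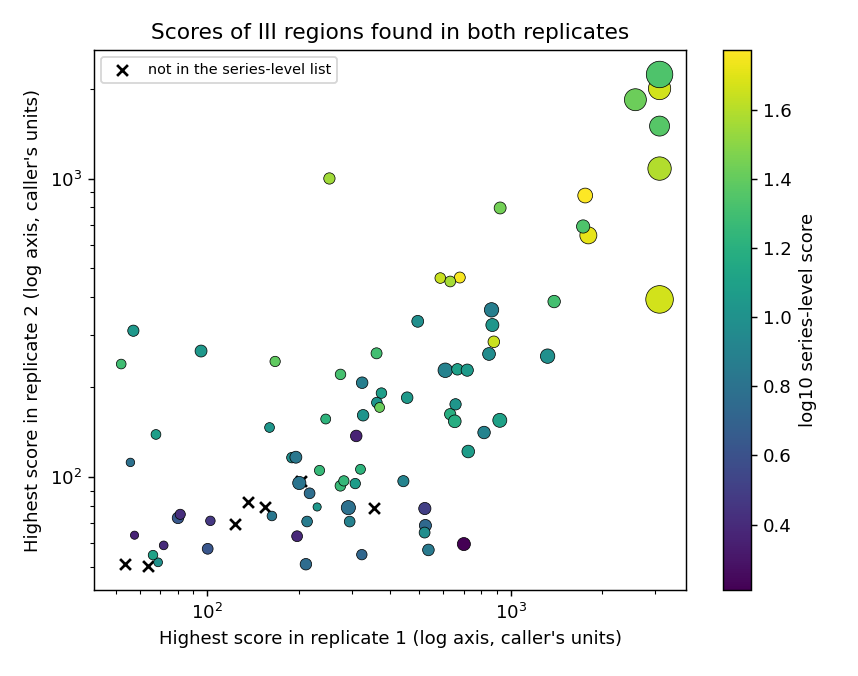
Highest score in replicate 2 against highest score in replicate 1 (both log axes, caller's units) for the 85 III regions in both replicates, with colour for the log10 series-level score, point size for width and crosses for regions absent from the series-level list. The scores go together (Spearman's rho 0.64), and the column of points at the right is the tied replicate 1 score of 3100.

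Where both replicates had a peak in a III region, the positions were close. Peaks were joined by overlap, which by itself keeps their midpoints close, and peaks farther apart counted as unshared. The closeness is therefore a description and not a test of agreement. Of the 85 regions, 69 held exactly 1 peak of each replicate, and the midpoints of these pairs were a median of 39 bp apart (interquartile range 12.5 to 72, at most 308). They were within 100 bp in 61 of the 69 pairs (88.4%, against 80.3% of 290 pairs on II, IV, V and X). The shared bases were a median of 77.6% of the bases covered by either peak, against 77.7% on the other chromosomes. Replicate 1 had the wider peak in 49 of the 69 pairs (71.0%, against 57.2%), with a median of 599 bp in replicate 1 and 496 bp in replicate 2.

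The order of scores was shared in part. Over the 85 III regions Spearman's rho between the replicates was 0.64, against 0.74 on II (n = 65), 0.50 on IV (n = 86), 0.68 on V (n = 89) and 0.52 on X (n = 104). Over the 78 III regions in all lists, the series-level score had a rho of 0.75 with replicate 2 and 0.48 with replicate 1. These are descriptions across sites of the same libraries.

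The regions farthest apart in rank, singled out after the values were seen, differed in both directions. From 8416923 to 8417934 the score was 701.44 in replicate 1, the 21st of the 85, and 59.6 in replicate 2, the 76th. Its series-level score of 1.62 was the lowest on III. From 424690 to 425355 the score was 57.03 in replicate 1, the 82nd, and 309.11 in replicate 2, the 19th. The region from 6133233 to 6133657 had the lowest replicate 1 score of the 85 (52) with 239.04 in replicate 2, the 26th, and 19.64 at series level. Low replicate 1 scores could thus go with high series-level scores.

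Higher-scoring III sites of replicate 1 were more often seen in replicate 2. Replicate 1 had a peak at 273 III regions and replicate 2 at 100, so most of the 273 could not be matched. The shares here and in the next paragraph can therefore not be compared between the replicates. Of the 55 regions in the highest-scoring 20% of replicate 1 on III, 47 were in replicate 2 (85.5%, 73.3 to 93.5). In the next 20% it was 21 of 55 (38.2%, 25.4 to 52.3), and in the lower 3 classes 5 of 55, 7 of 54 and 5 of 54. The class with 21 of 55 ended at a score of 150.67 and the class with 5 of 55 began at 145.16. Regions of replicate 1 without replicate 2 had a median replicate 1 score of 82.0, against 324.0 for those in both. Width fell with score, from a median of 756 bp in the highest class to 190 bp in the lowest. Wider regions are more likely to overlap by construction, so score and width are not separated here.

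Higher-scoring replicate 2 sites of III were nearly all seen in replicate 1. In the highest-scoring 20% of replicate 2 it was 18 of 20 (90%, 68.3 to 98.8), in each of the next 2 classes 20 of 20, in the 4th 15 of 20 (75%, 50.9 to 91.3) and in the lowest 12 of 20 (60%, 36.1 to 80.9). Of the series-level regions, 26 of 29 in the highest class were in both replicates, then 25 of 29, 14 of 29, 5 of 28 and 8 of 28. The classes of each list were cut on III alone, so they do not show whether other chromosomes differ.

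Among sites of replicate 1 that replicate 2 lacked, few on III scored high. Of the 48 III regions with a peak in the highest-scoring 20% of replicate 1, 6 lacked replicate 2 (12.5%, against 9.52% on II, 14.9% on IV, 17.5% on V and 31.9% on X). The highest ran from 354443 to 355347 with a score of 625.83, the 178th of the nuclear replicate 1 peaks, and a series-level score of 4.64. The best rank of such a region was 163 on II, 62 on IV, 134 on V and 36 on X.

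The next 4 on III scored between 375.21 and 441.4 in replicate 1. They ran from 10096298 to 10096873 (441.4), from 349420 to 350404 (430.76), from 8873861 to 8874616 (401.12) and from 12583324 to 12583837 (375.21). The first of these scored 4.49 at series level, and the other 3 were absent from that list. Of all 188 such regions, 11 had a replicate 2 peak within 500 bp (5.85%, against 3.07% of 814 on the other chromosomes) and 40 within 10 kb (21.3%). The median distance to the nearest replicate 2 peak was 50.7 kb, shorter than for the same class on II, IV, V and X. This distance and the share within 10 kb depend on how few peaks replicate 2 listed. They are therefore not shown to be a trait of these regions.

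Replicate 2 had 1 high-ranking site on III that replicate 1 lacked. On the left arm from 2077527 to 2082646, a region of 5120 bp, replicate 2 listed 2 adjoining peaks, the higher of which scored 754 (9th on III, 52nd of its nuclear peaks). The series-level list had 1 peak of 5063 bp there, scored 20.19, and replicate 1 had none. It was the 2nd widest region of III, and the other 6 of 2 kb or wider were in both replicates. The best-ranked replicate 2 region without replicate 1 was 180th on II, 323rd on IV, 161st on V and 175th on X.

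The other 14 such regions had lower scores. From 13446852 to 13447778 replicate 2 scored 354.84 and the series-level list 17.51. The 3 after it scored 87.9 (from 445581 to 445837), 77.3 (from 4626212 to 4626392) and 73.3 (from 835818 to 836128) in replicate 2, and only the last of these 3 was in the series-level list, with 6.27. The median replicate 2 score of the 15 regions was 63.9, against 140.9 for III regions in both replicates. A replicate 1 peak lay within 500 bp of 4 of the 15 (26.7%, against 15.2% of 66 on the other chromosomes) and within 10 kb of 8.

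The 30 regions of the series-level list alone were the narrowest class, with a median score of 5.12 and a range of 1.94 to 16.81. The highest was the last region of the chromosome and is described with the ends. A 958 bp region from 8862723 to 8863680 followed with 9.21 and was the widest of the class. Then came regions from 8446946 to 8447122 (177 bp, 8.57), from 9110934 to 9111101 (168 bp, 8.41) and, tied at 8.23, from 343728 to 344015 (288 bp) and from 1859645 to 1859790 (146 bp). Of the 30, 5 had a replicate 1 peak within 500 bp (16.7%, against 14.3% of 105 on the other chromosomes) and 1 a replicate 2 peak (3.33%, against 10.5%).

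About 30.2% of the III regions stood in clusters (25.2 to 35.6), against 41.6% of those on II, 28.6% on IV, 33.1% on V and 23.9% on X. A cluster is a chain of at least 3 regions with no more than 10 kb between neighbours, and III held 20 of them with 96 regions. These shares are descriptions, since clustered regions depend on each other. The centre held 31 of the 96 clustered regions (32.3%) and 91 of the 222 outside clusters (41.0%), which was not tested. Support in both replicates was 27.1% inside clusters and 26.6% outside.

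The largest cluster lay on the right arm from 13060827 to 13083951 and held 13 regions in 23.1 kb. Its 4 leftmost regions, of 657 to 899 bp, were in all lists. From left to right they scored 443.16, 817.75, 494.21 and 923.92 in replicate 1 and 96.84, 140.94, 332.38 and 796.98 in replicate 2. At series level they scored 8.13, 8.08, 9.59 and 27.68. To their right stood 9 regions of 139 to 460 bp, none in both replicates, with replicate 1 scores of at most 86.07. The cluster thus joined a run of well supported sites to a run of weak ones.

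The next largest, in the centre from 7406554 to 7432735, held 12 regions in 26.2 kb. Its highest scores were 205.71 in replicate 1 (86th on III), 95.47 in replicate 2 (64th) and 6.46 at series level (79th), and 9 of its regions were in replicate 1 without replicate 2. The wide region that starts at 7444277 lay outside it to the right, in the same window of 100 kb. The last of the 3 largest, on the right arm from 12598312 to 12617378, held 9 regions in 19.1 kb, of which 3 were in both replicates. Its strongest region, from 12612195 to 12613239, scored 1735.09 in replicate 1, 690.94 in replicate 2 and 21.61 at series level.

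**Figure D5:**
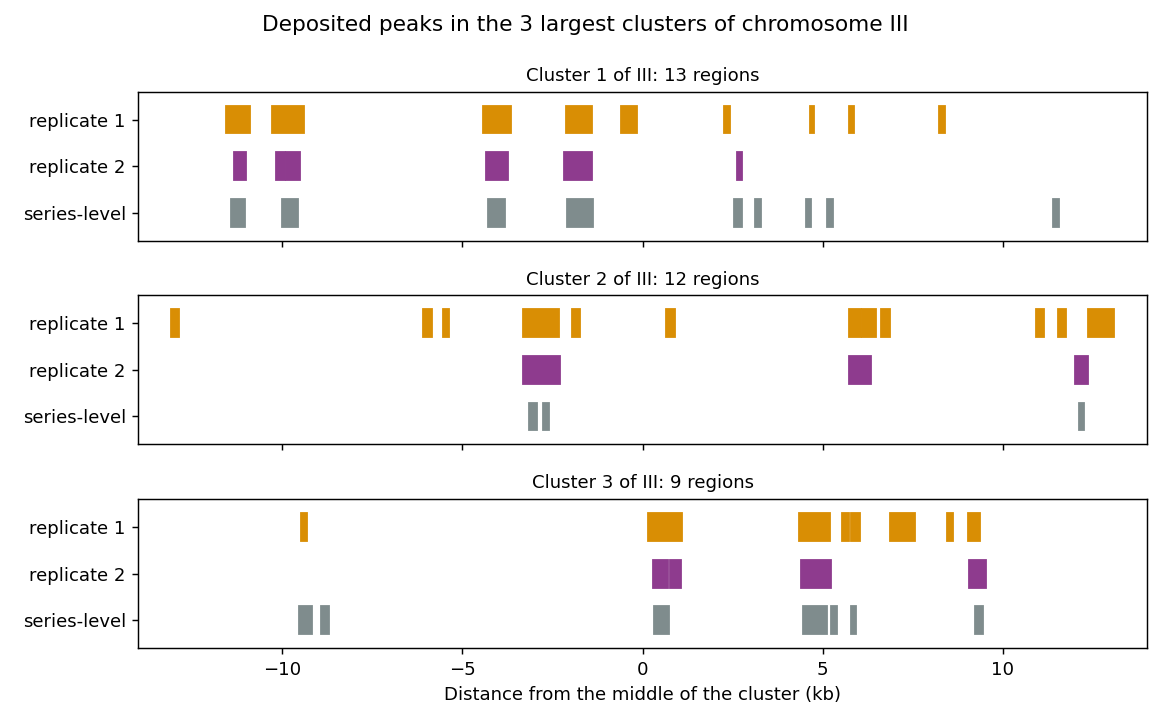
Deposited peaks of replicate 1, replicate 2 and the series-level list (rows) in the 3 largest clusters of III, drawn to scale against distance in kb from the middle of each cluster. In the first cluster the 4 regions shared by all lists stand on the left, and in the second most bars are in the replicate 1 row.

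The other 17 clusters held 3 to 5 regions each. Of all 20, 12 held at least 1 region in both replicates, 7 held no replicate 2 peak and 4 were made of replicate 1 peaks alone. The 3 fullest windows of 100 kb overlapped the 3 largest clusters. They held 15 regions from 13000001 to 13100000, 14 from 7400001 to 7500000 and 9 from 12600001 to 12700000, where the mean over III was 2.30. Of these, 4, 3 and 3 were in both replicates.

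The left end of III carried a region, which ran from 1 to 213 and was in all lists, with scores of 230.23 in replicate 1, 79.35 in replicate 2 and 10.88 at series level. The region farthest to the right ran from 13783356 to 13783731 and was in the series-level list alone with 16.81. Its end is the largest coordinate listed on III and was taken as the length of the chromosome, so its place at the right end was set by that choice and the true end may differ. Each of II, IV, V and X likewise began with a region at base 1 in all lists, and its last region was in the series-level list alone. The left-end scores of these 4 were 305.5 to 588.86 in replicate 1, 82.14 to 210.8 in replicate 2 and 11.45 to 41.37 at series level, so III had the lowest in each list. How the authors treated reads that match several places, as in telomere repeats, is not given in the sources used here.

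The joining rule left some regions close together. The smallest overlap that joined peaks of different lists on III was 6 bp. The smallest gap that kept regions apart was 1 bp, between the regions from 10226079 to 10226721 and from 10226723 to 10227321. In all, 37 gaps between neighbouring III regions were under 500 bp. Of the 100 III regions with a replicate 2 peak, 15 held more than 1 of them, and of the 273 with a replicate 1 peak, 6 did.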

How the data were processed

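The deposited files are 3 peak lists with a start, an end and a score per peak. The score is a value of the authors' peak caller, and nothing states which quantity it is or that lists were normalized to each other. Per the file headers, positions refer to WormBase WS220. MACS called the replicate peaks and MACS v2 the series-level peaks, per the files' source columns. Reads were aligned with BWA and the build was ce10, per the submitters' processing notes. Caller settings, filters, use of the inputs and the making of the series-level list: not given in the sources used here. Sequencing depth is unknown.

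Peaks sharing at least 1 bp were joined in Python 3.11.15 (numpy 2.4.6, pandas 2.3.3), which can chain peaks of 1 list, and a region took its highest score per list. Chromosome length was the largest listed coordinate. Counts were compared by exact binomial tests and shares by Fisher's exact test (scipy 1.17.1), two-sided, threshold 0.05, with Benjamini-Hochberg adjustment over 5 shares (over 4 for single chromosomes). The tests were run on simulated lists whose sites were placed independently by length. That check therefore does not cover the clustering of the real regions. Background was II, IV, V and X, and chromosome I was not used in it. The gene table used here was on another build, WBcel235, so regions were not assigned to genes.

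Named were the 10 highest series-level scores among regions in all lists, the 5 highest of each unshared class, the 3 largest clusters, the 3 fullest windows, the ends and the widest region. Other regions are said to be singled out. Members, lists and tests were chosen with earlier results of these data known.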

Additional observations from a re-analysis of the deposited data

How the results depend on the processing

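Of 92 values under other settings, 64 stayed on the same side of the threshold with the same sign, or within their interval. The density ratio of III lost its call in the higher-scoring 50% of each list (1.07), with V left out of the background (1.09), against IV alone (1.09) and in the series-level list alone (1.11). It turned against X alone (0.98), and was 1.08 by base pairs covered. Its exact binomial p ran from 3.4e-10 to 0.66. Single chromosomes, single lists and counting regions within 10 kb once were added after the data were seen. The centre share of III passed without the series-level list (39.6%) and with the middle 50% as centre (56.9%), and ran from 32.7% to 38.2% with one replicate left out. Its difference from the other chromosomes, in percentage points, ran from -3.58 to 1.06 with one replicate left out. It turned with 50% reciprocal overlap (-1.02) and without X (-2.03). The difference for replicate 2 without replicate 1 turned with 50% reciprocal overlap (1.67), with midpoints within 200 bp (0.098), in the higher-scoring 50% (0.27), with replicate 1 shortened to the length of replicate 2 (0.68) and without the series-level list (0.63). That for the series-level list alone turned with reciprocal overlap (-2.62) and midpoints (-0.95). Support in the centre against the arms turned with midpoints (-0.27), in the higher-scoring 50% (-8.13) and without the series-level list (-0.63). No turned value passed its test. The share in clusters was 39.2% with reciprocal overlap, 36.7% with midpoints, 21.4% with peaks within 500 bp joined, 20.7% in the higher-scoring 50%, 23.9% with gaps up to 5 kb and 47.5% with gaps up to 20 kb. The cause was not tested. No paired analysis was possible because the ChIP samples are a single group in these comparisons, which set chromosomes against each other within the same lists. Without depth, a region missing from a list is one that was not called, and is not shown to be unbound.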
